A study of Mus musculus with 2 samples.

Results

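Somatic cells of the foetal mouse testis were compared after 24 h of organ culture with the MEK1/2 inhibitor PD0325901 (MEKi) or with its vehicle, DMSO. The comparison rested on 8 of the 40 somatic RNA-seq libraries of the series, 4 XY MEKi libraries (replicates 1, 2, 4 and 6) and 4 XY DMSO libraries (replicates 2, 3, 4 and 5), which were chosen by their labels. All 8 came from gonad-mesonephros tissue of E12.5 embryos of Swiss females and males that carry an *Oct4*-eGFP transgene on the 129svJT2 background. MEKi was used at 500 nM. After culture the mesonephros was removed, several gonads were pooled for each library, and GFP-negative cells were sorted, so that the germ cells, which express *Oct4*-eGFP, should have been left behind. The remaining 32 libraries were uncultured XX and XY cells, XX DMSO cultures at 24 h and 72 h, XY cultures with an FGFR inhibitor at 24 h and 72 h, and XY DMSO and MEKi cultures at 72 h. They entered the fit, and XX DMSO libraries at 24 h, XY uncultured libraries and the MEKi and DMSO libraries at 72 h are cited where they bear on a gene.

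Growth factors that bind receptor tyrosine kinases activate RAS, RAF, MEK1/2 and ERK1/2 in turn. ERK1/2 phosphorylates transcription factors of the ETS family, some of which bind DNA together with SRF. Genes switched on by ERK fall into an immediate-early group (*Fos*, *Egr* and *Ier* genes), a group of ETS factors and growth genes (*Etv4*, *Etv5*, *Ccnd1*), and a group of inhibitors (*Dusp*, *Spry* and *Spred* genes) that act back on the cascade. In the foetal testis the cascade is best known downstream of FGF9, which acts with SOX9 in Sertoli cells, the cells that enclose the germ cells in cords. Outside the cords lie interstitial progenitors, foetal Leydig cells that make androgens, vessels, and the mural cells (pericytes and smooth muscle) that wrap them.

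MEKi lowered transcripts of some members in each of the 3 groups of ERK-dependent genes. These were 6 of 15 inhibitors, 9 of 17 ETS factors and growth genes and 7 of 28 immediate-early genes tested. Of all 15125 genes tested, 1.98% were lower by the same thresholds. *Dusp6*, *Etv5* and *Egr1* were 3.62-, 3.03- and 2.26-fold lower. Pericyte genes, Notch pathway genes and several guidance ligands and receptors also fell, and the summed endothelial markers were lower in the same libraries, at 1104 against 2368 CPM on average. A smaller set rose, including the cell cycle inhibitor *Cdkn1c*, the activin antagonist *Fstl3*, the renin gene *Ren1*, and the epithelial junction and keratin genes *Cldn11* and *Krt8*. The summed germ cell markers were also higher with MEKi, at 1143 against 654 CPM on average, and their part in these rises was not tested. The Sertoli regulator *Sox9* did not pass the test.

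Promoters of 4 of the genes that fell are shown for the sites through which ERK is known to act, the ETS site and the CArG box to which SRF binds. Each sequence runs from 250 bases before the start site to 50 bases after it, from RefSeq on GRCm38.p6. The letters CCGGAA (ETS), TGANTCA (AP-1) and TGACGTCA (CRE) and the CArG box were searched on both strands. Capitals mark the matches. The genes were chosen after the search, with the window holding most matches where RefSeq gave several.
*Egr2*, chr10:67537316-67537615, + strand: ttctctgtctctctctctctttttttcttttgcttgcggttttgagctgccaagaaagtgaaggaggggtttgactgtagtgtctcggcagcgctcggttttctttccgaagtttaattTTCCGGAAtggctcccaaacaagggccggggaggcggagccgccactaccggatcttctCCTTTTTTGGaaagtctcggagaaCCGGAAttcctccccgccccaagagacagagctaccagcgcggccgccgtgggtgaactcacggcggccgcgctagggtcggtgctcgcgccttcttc
*Dusp5*, chr19:53528895-53529194, + strand: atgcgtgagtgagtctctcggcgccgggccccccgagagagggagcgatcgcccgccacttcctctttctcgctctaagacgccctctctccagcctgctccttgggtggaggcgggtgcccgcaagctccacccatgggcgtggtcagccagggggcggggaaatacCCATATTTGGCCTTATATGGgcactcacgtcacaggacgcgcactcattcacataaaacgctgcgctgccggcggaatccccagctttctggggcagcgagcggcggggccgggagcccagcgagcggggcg
*Zfp36*, chr7:28379179-28379478, − strand: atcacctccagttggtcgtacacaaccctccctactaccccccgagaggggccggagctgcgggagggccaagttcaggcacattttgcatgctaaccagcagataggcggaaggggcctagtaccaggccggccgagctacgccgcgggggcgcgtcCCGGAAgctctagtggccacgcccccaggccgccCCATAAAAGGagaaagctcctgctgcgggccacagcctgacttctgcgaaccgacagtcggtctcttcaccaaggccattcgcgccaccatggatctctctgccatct
*Dusp6*, chr10:99262981-99263280, + strand: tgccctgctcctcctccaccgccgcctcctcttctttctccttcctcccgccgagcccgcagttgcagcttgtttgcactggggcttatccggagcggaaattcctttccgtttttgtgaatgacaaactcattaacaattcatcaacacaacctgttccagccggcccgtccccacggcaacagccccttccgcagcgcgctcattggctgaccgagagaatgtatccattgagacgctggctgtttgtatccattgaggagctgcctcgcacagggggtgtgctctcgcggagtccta

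The *Egr2* window, 1 of 5 listed for the gene, held a CArG box from −72 to −63 and 3 ETS matches, of which a pair overlapped on opposite strands (from −131 to −126 and from −129 to −124). In *Dusp5* a pair of CArG boxes lay end to end from −82 to −63. *Zfp36* held an ETS match from −92 to −87 and a CArG box from −58 to −49, and the *Dusp6* window held none of the 4 motifs. Of 27025 genes with a window of this length, 16.7% held the ETS letters in any of their windows, 8.97% the AP-1 letters, 2.03% the CRE letters and 1.81% a CArG box. Of the 21 ERK-dependent genes that fell, 14 had a window, and 3 of these (21.4%) held an ETS match, 3 (21.4%) a CArG box, 1 (7.14%) a CRE and 0 an AP-1 match. Among the 30 members with a window that did not pass the test, the counts were 3 (10%), 0, 3 (10%) and 1 (3.33%). A match is a run of letters and was not tested as a binding site. *Etv4*, *Egr1*, *Egr3*, *Ets1*, *Ccnd1*, *Phlda1* and *Spry4* had no window and are not shown.

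Total counts were 2605556 to 4836550 in the DMSO libraries and 1560113 to 2843558 in the MEKi libraries, so the MEKi libraries were on the whole shallower. Each count is 1 unique molecular identifier (UMI) at the 3′ end of a transcript, and levels are given as CPM, which are counts scaled to a common total, on library sizes scaled by the TMM method. Mitochondrial genes took 1.00% to 1.31% of counts with DMSO and 1.34% to 1.61% with MEKi. The first principal component (35.2% of the variance) separated the groups, and MEKi replicate 4 lay closest to the DMSO libraries. *Xist* had 3 to 9 counts and the Y-linked *Ddx3y* 65 to 253, as XY labels require. Markers of some cells other than those of the gonadal stroma and cords moved with treatment. The counts of markers that rose or fell are to be read beside 1.29% of all genes higher and 1.98% lower. The 111 endothelial markers summed to 2174 to 2653 CPM with DMSO and 1017 to 1189 CPM with MEKi, and 62 of 96 tested fell. *Cdh5*, the endothelial cadherin, fell 6.11-fold and *Pecam1* 4.00-fold (FDR 3.05e-09 and 2.18e-06), and the marker with most counts, *Ets1*, fell from 143 to 82.3 CPM. The 80 germ cell markers summed to 558 to 738 CPM with DMSO and 911 to 1466 CPM with MEKi, and 14 of 46 tested rose and 1 fell. *Dppa3* averaged 60.5 and 156 CPM, and *Ddx4* 7.10 and 17.6 CPM, but *Pou5f1* did not pass the filter on low counts. The call for *Ddx4* was lost without DMSO replicates 2, 3 or 4 or MEKi replicates 2 or 6 (FDR up to 0.223). Without MEKi replicate 6, 9 germ cell markers rose. Macrophage and blood cell markers summed to 230 to 395 and 201 to 245 CPM and 2 of 34 fell, while *C1qa* and *Csf1r* did not pass (FDR 0.167 and 0.322) and *Dab2* averaged 107 and 88.2 CPM. Erythroid markers overlapped at 2943 to 8306 and 3588 to 8725 CPM, with 1 of 20 higher, *Hba-a1* at 1516 and 1754 CPM on average and *Hbb-y* at 679 ± 884 and 1121 ± 1003 (SD, n = 4). Duct markers summed to 186 to 246 and 234 to 336 CPM, with 1 of 9 higher, *Pax8* at an FDR of 0.541 and *Spint2* at 98.3 and 130 CPM. Neural crest and glial markers summed to 92.9 to 273 and 74.7 to 153 CPM, with 3 of 10 lower and *Tubb3* at 23.1 and 26.0 CPM. Fewer cells of a type and less RNA per cell cannot be told apart in these sorted pools.

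Of 15125 genes tested, 195 (1.29%) were higher and 300 (1.98%) lower with MEKi, at an FDR below 0.05 (Benjamini-Hochberg) from the quasi-likelihood test of edgeR and a change of at least 1.5-fold. These are called differentially expressed genes (DEGs) here, and rose and fell are used of them only. The median log2 fold change of all genes was −0.01. DEG counts of the gene lists below are to be read beside these shares of 1.29% and 1.98%. In 616 genes (4.07%) all 4 MEKi libraries lay above all 4 DMSO libraries, and in 722 (4.77%) all lay below. Outside the 6 marker lists of other cells, 179 genes rose and 232 fell. When the test asked for a change beyond 1.5-fold (edgeR's glmTreat), 43 genes rose and 114 fell, and with voom with quality weights and treat, the study's own choice, 21 rose and 67 fell. Without MEKi replicate 2, 147 rose and 226 fell, and without MEKi replicate 6, 145 and 214.

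**Figure D1:**
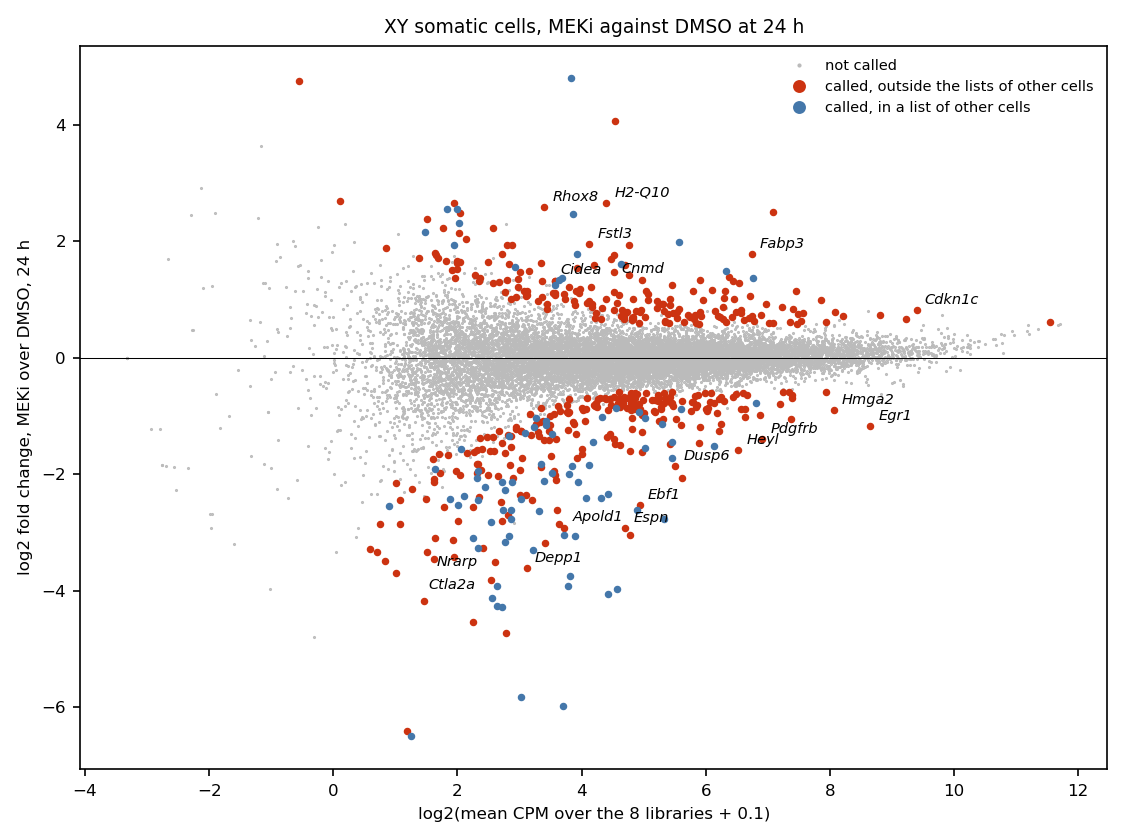
Each point is 1 of the 15125 genes tested. The horizontal axis is log2(mean CPM + 0.1) over the 8 libraries and the vertical axis the log2 fold change of MEKi over DMSO at 24 h. Red points are the 179 higher and 232 lower DEGs outside the lists of other cells, blue points the 16 higher and 68 lower within them, and grey points all other genes.

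Of the inhibitors that ERK induces, 15 were tested, and 6 fell and 0 rose, against 1.98% of all genes lower. Their median log2 fold change was −0.77, and 13 of the 15 were negative. The list summed to 482 to 587 CPM with DMSO and 297 to 390 CPM with MEKi, with no overlap. *Dusp6* (ENSMUSG00000019960.8, GRCm39 chromosome 10, 99086564 to 99103361, + strand) encodes the phosphatase that removes phosphate from ERK in the cytoplasm. It had 65.2, 73.8, 79.5 and 67.7 CPM in the DMSO libraries, in the order of replicates given above, and 14.7, 20.6, 26.7 and 16 CPM in the MEKi libraries. The highest MEKi library was below 0.5 of the lowest DMSO library, and the log2 fold change was −1.86 (SE 0.22, FDR 1.15e-08). Sprouty proteins block RAS activation downstream of receptors. *Spry4* had 31.4, 21.1, 16.9 and 26.1 CPM with DMSO and 5.87, 2.66, 13.4 and 4.10 CPM with MEKi, where replicate 4 was high (log2 fold change −1.72, SE 0.29, FDR 4.0e-05, and −2.42 without that library). *Spry1* had 21.4, 26.6, 23.9 and 23.7 CPM against 7.34, 7.97, 10.6 and 5.93 CPM (log2 fold change −1.56, SE 0.29, FDR 2.16e-04). In both the groups stood apart. *Spry2* did not pass (log2 fold change −0.80, FDR 0.0915), although its MEKi libraries, at 10.6 to 24.6 CPM, lay below the 25.7 to 29.9 CPM of DMSO, and without MEKi replicate 2 it passed (−1.01, FDR 0.0492).

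The SPRED proteins hold back RAF. *Spred1* averaged 89.0 ± 20.1 CPM with DMSO and 51.9 ± 7.12 CPM with MEKi (SD, n = 4; FDR 9.34e-04). *Spred2* averaged 37.1 ± 8.83 and 21.1 ± 4.93 CPM and its groups just overlapped, at 27.2 and 27.4 CPM. Its call (FDR 0.00907) was lost without DMSO replicate 3, MEKi replicate 2 or MEKi replicate 6 (FDR 0.0854, 0.0513 and 0.0574). *Dusp5*, the nuclear ERK phosphatase whose promoter is given above, had 41.0, 49.0, 40.8 and 19.8 CPM against 26.4, 13.3, 18.8 and 25.5 CPM. DMSO replicate 5 lay within the MEKi range, and the call (log2 fold change −0.84, FDR 0.0438) held only without DMSO replicate 5 or MEKi replicate 1, with an FDR of up to 0.185 when any other library was left out. *Dusp4*, a nuclear relative, did not pass (log2 fold change −1.0, FDR 0.102). Its MEKi replicate 6 stood at 10.9 CPM beside 1.33 to 5.38 CPM in the rest, and without that library it passed (−1.5, FDR 0.0209). *Dusp7* (−0.52, FDR 0.26) and *Dusp9* (0.48, FDR 0.597), further ERK phosphatases, did not pass.

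Of the genes used as readouts of ERK activity, 17 were tested, 9 fell and 0 rose, with a median log2 fold change of −0.78 and 16 of 17 negative. The list summed to 1435 to 1696 CPM with DMSO and 728 to 927 CPM with MEKi. In 9 of the 17 every MEKi library lay below every DMSO library, against 4.77% of all genes. The PEA3 factors *Etv4*, *Etv5* and *Etv1* are ETS proteins induced downstream of FGF receptors. *Etv4* had 6.42, 6.46, 7.09 and 6.22 CPM with DMSO and 0, 1.99, 2.74 and 1.37 CPM with MEKi (4.04-fold lower, FDR 0.00166). *Etv5* had 45.6, 38.3, 48.1 and 32.7 CPM against 15.6, 13.9, 13.4 and 11.9 CPM (3.03-fold lower, FDR 2.07e-07). *Etv1* averaged 42.3 ± 4.27 and 21.8 ± 4.34 CPM (FDR 1.38e-04), with MEKi replicate 6 at 28.3 CPM above the others. All 3 factors thus stood apart between the groups.

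*Egr1*, a zinc finger factor induced within minutes, had 529, 596, 503 and 607 CPM with DMSO and 318, 223, 226 and 221 CPM with MEKi (log2 fold change −1.18, SE 0.14, FDR 3.26e-08). *Hmga2*, an architectural chromatin protein of growing embryonic tissue, was nearly level within groups, at 336 to 361 and 165 to 218 CPM (log2 fold change −0.90, SE 0.12, FDR 7.85e-07). *Phlda1*, a pleckstrin-like growth factor target, averaged 49.7 ± 5.44 and 28.0 ± 3.64 CPM (FDR 4.02e-04). *Ccnd1*, the cyclin that carries mitogen signals into the cell cycle, had 92.0, 222, 85.6 and 90.6 CPM with DMSO and 69.0, 69.1, 85.3 and 44.2 CPM with MEKi. DMSO replicate 3 was more than 2 times as high as the other DMSO libraries, and without it the log2 fold change moved from −0.87 (FDR 0.0267) to −0.41 (FDR 0.445). The call was also lost without MEKi replicates 1, 2 or 6 (FDR 0.0625, 0.0607 and 0.155). *Ets1*, which is also an endothelial marker, fell by 0.78 on the log2 scale (FDR 0.0020). *Ets2* averaged 52.1 ± 13.5 and 33.3 ± 6.42 CPM with overlap (FDR 0.0148), and lost the call without DMSO replicate 4 or MEKi replicates 4 or 6 (FDR 0.179, 0.0614 and 0.0751). *Plaur*, the urokinase receptor, was low at 5.22 to 8.55 and 0.912 to 2.66 CPM and did not pass (FDR 0.0655). *Myc* (log2 fold change −0.33, FDR 0.593) and *Epha4* (0.01, FDR 0.988), the growth regulator and an ephrin receptor, did not pass either.

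Of 28 immediate-early genes tested, 7 fell and 0 rose, with a median log2 fold change of −0.33 and 21 negative. The list summed to 3288 to 4124 CPM with DMSO and 2685 to 3448 CPM with MEKi, with overlap. *Egr1*, above, is 1 of the 7. *Egr2*, a relative of EGR1, had 20.0, 20.1, 25.7 and 17.9 CPM with DMSO and 2.45, 2.66, 5.14 and 2.74 CPM with MEKi (6.10-fold lower, FDR 1.0e-06). *Egr3* had 13.5, 16.9, 14.4 and 11.3 CPM against 3.91, 5.31, 0.685 and 2.28 CPM (5.13-fold lower, FDR 4.03e-05). *Dusp2*, a nuclear phosphatase, had 6.77, 5.72, 13 and 12.1 CPM against 1.96, 1.33, 0.685 and 0 CPM (9.62-fold lower, SE 0.66 on the log2 scale, FDR 7.49e-04). These 3 had the largest fold changes of the list, and none overlapped between the groups. *Maff*, a small MAF factor, averaged 10.2 ± 1.33 and 3.27 ± 1.35 CPM (FDR 0.00547), and *Junb*, an AP-1 subunit, 208 ± 39.6 and 129 ± 13.9 CPM (FDR 0.00585). *Zfp36*, which marks short-lived messages for decay, had 52.4 to 83.3 and 35.2 to 48.0 CPM, given as ranges (log2 fold change −0.76, FDR 0.0219), and its call was lost without DMSO replicates 3 or 4 or MEKi replicates 2 or 6 (FDR 0.101, 0.0727, 0.0803 and 0.0997).

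*Fos* and *Jun* form AP-1. *Fos* had 304, 663, 586 and 640 CPM with DMSO and 445, 178, 430 and 361 CPM with MEKi. DMSO replicate 2 was the low one, the groups overlapped (log2 fold change −0.63, FDR 0.0947), and without it *Fos* passed (−0.83, FDR 0.0144). *Jun* had 412 to 568 CPM with DMSO and 474 to 674 CPM with MEKi (log2 fold change 0.21, 95% interval −0.05 to 0.47, FDR 0.449). *Ier2*, a nuclear immediate-early protein, had an FDR of 0.011 but its 1.39-fold difference was under the threshold of 1.5.

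**Figure D2:**
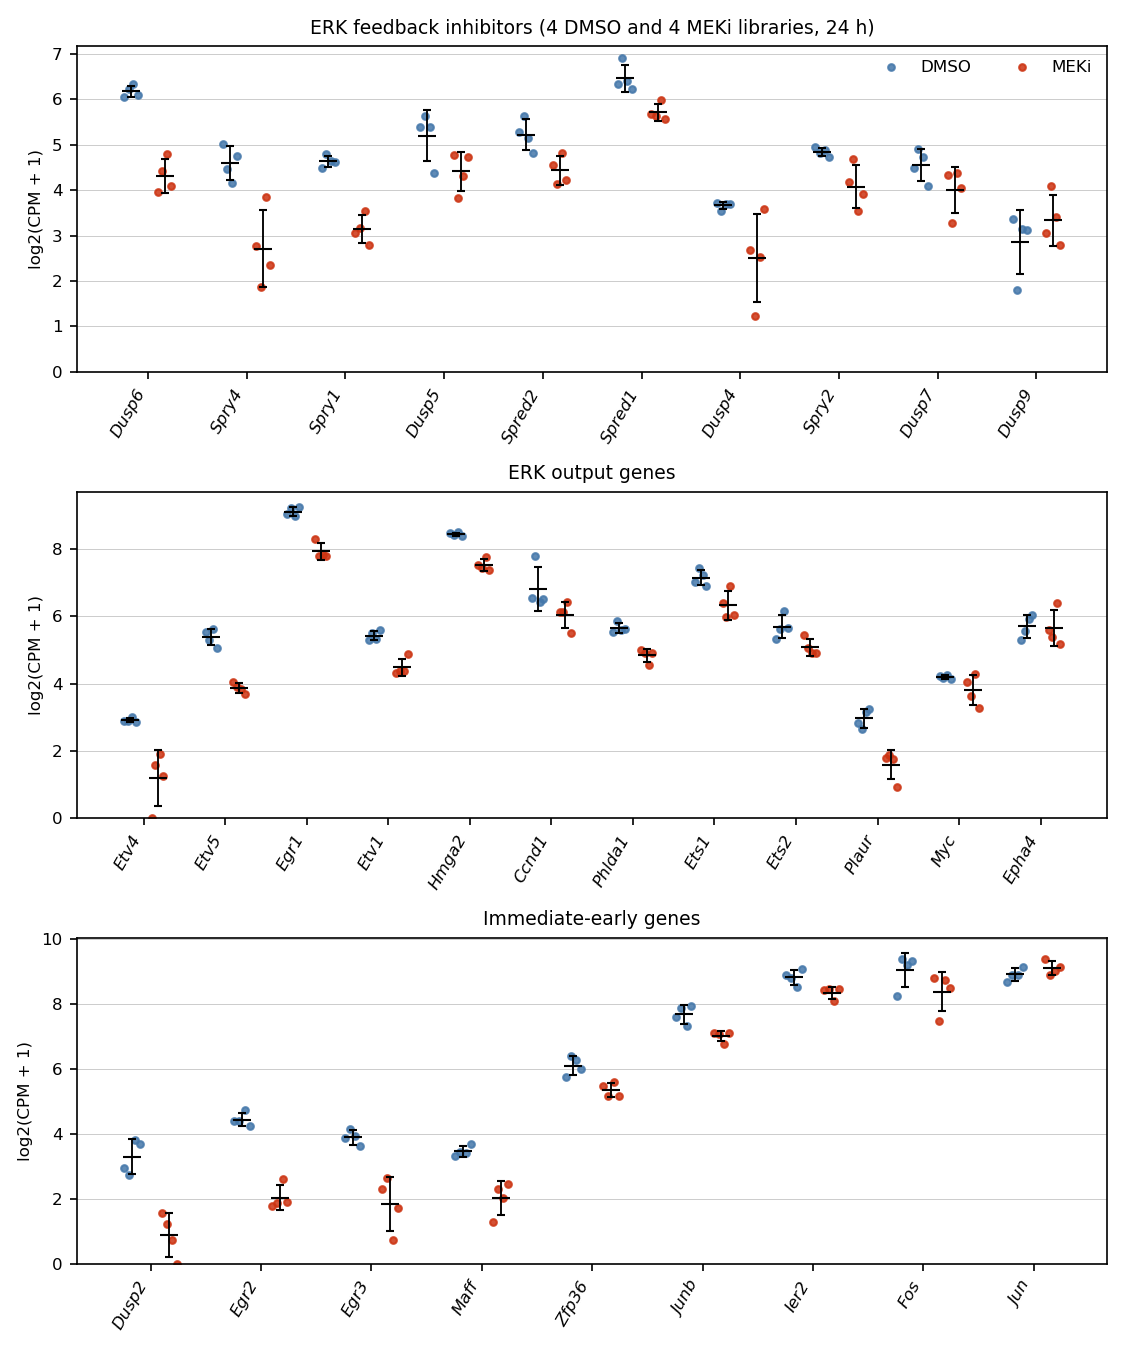
Levels of ERK-dependent genes in the 8 libraries, as log2(CPM + 1), in 3 panels for the inhibitors, the readouts and the immediate-early genes. Each dot is 1 library, and bars are the mean ± SD of 4. MEKi dots lie below all DMSO dots for *Dusp6*, *Etv5*, *Egr1* and *Egr2*.

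Few receptor and ligand genes above the cascade were DEGs. Of 29 growth factor receptors tested, 1 fell and 0 rose (median log2 fold change −0.17). It was *Pdgfrb*, the receptor that mural cells use to sense PDGF-B. It had 159, 214, 149 and 178 CPM with DMSO and 60.6, 58.5, 89.1 and 54.2 CPM with MEKi, well apart (2.63-fold lower, log2 fold change −1.40, SE 0.17, FDR 3.43e-08). The XX DMSO libraries at 24 h averaged 67.3 ± 9.31 CPM and uncultured XY cells 65.5 CPM. The growth factor ligand list summed to 908 to 1042 CPM with DMSO and 1109 to 1155 CPM with MEKi, higher without overlap. Of 31 growth factor ligands tested, 3 fell and 0 rose (median −0.02). Each of these calls was lost when any 1 of several libraries was left out, though the log2 fold changes stayed negative. *Gdnf*, a Sertoli product that acts on the germline, had 20.1 to 21.7 CPM with DMSO and 6.64 to 16.9 CPM with MEKi (FDR 0.0282), and lost the call without DMSO replicates 2 or 4 or MEKi replicates 2 or 4 (FDR 0.0504 to 0.136). *Vegfc*, a lymphatic growth factor, is also on the endothelial list. It averaged 4.83 and 1.22 CPM (FDR 0.0292), and held the call only without DMSO replicates 2 or 5 (FDR up to 0.0988 otherwise). *Angpt1*, the TIE2 ligand of mural cells, averaged 7.32 and 2.74 CPM (FDR 0.0408), and held it only without DMSO replicate 3 or MEKi replicate 1 (FDR up to 0.154 otherwise). *Fgf9* did not pass, with 13.6 to 22.6 CPM with DMSO and 17.8 to 26.6 CPM with MEKi (log2 fold change 0.30, 95% interval −0.17 to 0.77, FDR 0.592).

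In the neighbouring PI3K and FOXO list 1 of 24 genes rose and 1 fell (median −0.11), against 1.29% and 1.98% of all genes. *Irs2*, an adaptor of insulin and IGF receptors, had 50.6, 78.3, 52.5 and 85.5 CPM with DMSO and 30.8, 29.2, 28.8 and 30.5 CPM with MEKi, very even within MEKi (2.23-fold lower, FDR 1.82e-05). *Foxo3*, the forkhead factor that AKT holds outside the nucleus, had 87.0, 111, 97.1 and 60.7 CPM against 156, 169, 129 and 141 CPM, again apart (1.65-fold higher, FDR 0.00412). Of 22 apoptosis genes, 1 fell, *Bcl2*, which keeps mitochondria from releasing cytochrome c (73.7 ± 9.98 and 41.7 ± 5.61 CPM, FDR 4.15e-05).

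MEKi lowered Notch pathway transcripts in the same cultures. Of 20 genes tested 6 fell and 0 rose, against 1.98% and 1.29% of all genes. The median log2 fold change of the 20 was −0.45, and 17 were negative. The summed levels overlapped, at 1025 to 1131 and 818 to 1059 CPM. Notch receptors are cleaved when a ligand on the next cell binds them, and the freed fragment turns on HES and HEY genes. *Notch1* had 63.1, 74.1, 64.6 and 51.7 CPM with DMSO and 23.0, 19.3, 20.9 and 27.8 CPM with MEKi (2.78-fold lower, log2 fold change −1.48, SE 0.16, FDR 2.31e-09). *Heyl*, a target gene, had 147, 155, 107 and 142 CPM against 50.4, 42.5, 46.2 and 42.9 CPM (3.01-fold lower, FDR 1.07e-08). *Nrarp*, a target that feeds back on the pathway, had 11.4, 10.2, 12.6 and 9.72 CPM against 2.93, 0, 0.343 and 0.456 CPM (11.3-fold lower, FDR 1.57e-06). MEKi replicate 1 held 6 of its 8 MEKi counts, and without it the log2 fold change went from −3.50 to −4.98. In *Notch1*, *Heyl* and *Nrarp* the groups were far apart. The ligand *Dll4* averaged 11.3 ± 5.77 and 0.892 ± 1.25 CPM (FDR 5.28e-06), the receptor *Notch4* 11.8 ± 0.757 and 2.67 ± 1.04 CPM (FDR 3.13e-04), and the fringe glycosyltransferase *Mfng* 8.49 ± 1.25 and 1.44 ± 0.915 CPM (FDR 0.00302). Without MEKi replicate 2, which held 4 of its 6 MEKi counts, *Dll4* went from −3.91 to −5.11 on the log2 scale. *Dll4* and *Notch4* are also endothelial markers, and the sum of those markers fell from 2368 to 1104 CPM on average. Among the 16 Notch genes in no list of other cells, 4 fell and 0 rose, with a median of −0.35. The part of the endothelial decrease in the Notch values was not tested.

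Of 29 axon guidance genes, 7 fell and 1 rose (median −0.17), against 1.98% and 1.29% of all genes. The products of guidance genes steer vessels as well as axons. *Efna1*, an ephrin bound to the membrane, had 28.9, 30.8, 38.9 and 36.6 CPM with DMSO and 11.7, 13.3, 11 and 13.2 CPM with MEKi (2.78-fold lower, FDR 8.01e-08). *Nrp1*, a coreceptor for semaphorins and VEGF, had 91.6, 160, 131 and 149 CPM against 61.1, 77.7, 76.0 and 48.3 CPM (2.03-fold lower, FDR 9.21e-06). The netrin receptor *Unc5b* and the ephrin *Efnb2*, both on the endothelial list too, averaged 64.3 and 23.5 CPM (FDR 3.26e-08) and 43.6 and 21.1 CPM (FDR 4.71e-04). None of these 4 overlapped between the groups. The repellent *Slit2* averaged 98.0 ± 22.2 and 57.9 ± 15.1 CPM with a slight overlap (FDR 0.00256). *Sema3d*, a secreted semaphorin, had 35.8 CPM in DMSO replicate 3 and 15.9 to 17.2 CPM in the other DMSO libraries, against 4.10 to 12.7 CPM with MEKi (FDR 0.0105), and its call was lost without DMSO replicate 3 or MEKi replicates 2 or 6 (FDR 0.142, 0.054 and 0.0852). *Ntn4*, a netrin of basement membranes, was the 1 that rose, from 9.30 ± 3.01 to 20.6 ± 6.45 CPM (FDR 0.00949), and the call was lost without DMSO replicate 3 or MEKi replicate 1 (FDR 0.0587 and 0.0833). Without the members shared with other cells, 5 of 25 fell and 1 rose, with a median of −0.04. The endothelial markers moved with the guidance genes that fell, and their part in those values was not tested.

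Of 25 mural and smooth muscle genes, 6 fell and 2 rose (median −0.17), against 1.98% and 1.29% of all genes. The 6 that fell are known from pericytes. *Rgs5*, a regulator of G protein signals and a standard pericyte marker, had 11.8, 12.2, 8.62 and 12.1 CPM with DMSO and 2.45, 3.99, 0.685 and 0 CPM with MEKi (7.0-fold lower, FDR 2.71e-06), and its log2 fold change went from −2.81 to −3.42 without MEKi replicate 2. *Abcc9* and *Kcnj8* encode the subunits of the pericyte KATP channel. *Abcc9* had 15.7, 31.3, 17.0 and 22.9 CPM against 2.45, 1.33, 3.43 and 4.10 CPM (7.23-fold lower, FDR 2.3e-07). *Kcnj8* had 12.1, 16.2, 19.5 and 13.2 CPM against 3.42, 1.99, 1.03 and 5.01 CPM (5.45-fold lower, FDR 1.16e-06). No library of either group crossed over in these 3 genes. *Ndufa4l2*, a mitochondrial protein abundant in pericytes, had 54 counts in the DMSO libraries and 2 in the MEKi libraries, both in replicate 1, a ratio of 16 after scaling (95% counting interval 4.22 to 135, FDR 0.00182). The other MEKi libraries had 0 counts, and without replicate 1 it was at least 8.15-fold lower when 3 counts over the group are taken as the floor. *Cspg4*, the NG2 proteoglycan, averaged 107 ± 14.0 and 66.4 ± 12.9 CPM (FDR 0.0083) and lost the call without DMSO replicate 3 or MEKi replicate 6 (FDR 0.055 and 0.0608). *Mcam*, an adhesion molecule of pericytes and endothelium, had 20.4 to 27.6 and 12.6 to 14.0 CPM (FDR 0.0455), and the call was lost whichever library was left out.

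Over the whole list, 9 of the 25 genes were lower and 5 higher at an unadjusted p below 0.05. Over all 15125 genes these counts were 1205 and 1211. *Tagln* and *Smtn*, of the smooth muscle cytoskeleton, averaged 43.3 and 28.5 CPM (FDR 0.0608) and 155 and 124 CPM (FDR 0.088), and the receptor *Notch3* 30.8 and 23.3 CPM (FDR 0.268), without overlap but short of the test. *Acta2*, smooth muscle actin, which marks peritubular myoid cells in the testis, had 358, 312, 315 and 351 CPM with DMSO and 395, 336, 401 and 405 CPM with MEKi, with overlap (log2 fold change 0.21, 95% interval −0.04 to 0.45, FDR 0.422). *Ren1*, the renin gene, had 54.2, 51.2, 38.9 and 52.1 CPM against 112, 136, 103 and 84.3 CPM, with no overlap (2.22-fold higher, FDR 0.00256). *Tnnt2*, a troponin of the thin filament, had 10.9 to 14.4 and 18.6 to 30.8 CPM (FDR 0.0272), and lost the call without DMSO replicates 2, 3 or 4 or MEKi replicate 4 (FDR 0.0577, 0.0952, 0.0585 and 0.141). Without DMSO replicates 2, 3 or 4 or MEKi replicate 4, 1 gene of the list rose. *Nes*, the intermediate filament nestin of progenitor cells, was the 1 gene of 19 that fell among interstitial progenitor genes. It had 211, 257, 204 and 221 CPM against 97.8, 89.0, 127 and 113 CPM, well apart (2.08-fold lower, log2 fold change −1.05, SE 0.12, FDR 1.07e-08), and XX DMSO libraries averaged 67.3 ± 16.5 CPM. *Nr2f2*, the factor that marks the interstitium as a whole, did not pass (636 ± 70.4 and 767 ± 82.1 CPM, FDR 0.393). The endothelial markers moved with the pericyte genes in these libraries, and their part in the result was not tested.

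Few Sertoli cell genes passed the test. Of 29, 3 rose and 1 fell, against 1.29% and 1.98% of all genes. The median log2 fold change of the 29 was 0.30, and 19 were positive. Their summed level overlapped at 3129 to 4612 CPM with DMSO and 3169 to 4463 CPM with MEKi. DMSO replicate 2 held the highest sum of the DMSO libraries and MEKi replicate 4 the lowest of the MEKi libraries. Without DMSO replicate 2, 6 members rose, without MEKi replicate 4, 5, and without DMSO replicate 3, 2. *Sox9*, the factor that sets Sertoli fate, had 410, 316, 292 and 264 CPM with DMSO and 465, 458, 258 and 459 CPM with MEKi. Replicate 4 was the lone low MEKi library, and *Sox9* did not pass (log2 fold change 0.35, 95% interval −0.01 to 0.71, FDR 0.324). *Dhh*, the hedgehog ligand of Sertoli cells, had 94.5, 53.2, 67.6 and 53.7 CPM against 113, 82.4, 64.4 and 86.6 CPM with overlap (0.36, −0.06 to 0.79, FDR 0.417). *Amh*, the hormone that removes the Müllerian duct, was low in both groups at 3.64 to 5.44 and 5.14 to 7.97 CPM (FDR 0.805). *Ptgds*, the prostaglandin D synthase that acts beside SOX9, averaged 221 ± 65.4 and 347 ± 99.8 CPM and did not pass (0.65, FDR 0.0671), but passed without DMSO replicate 2 or MEKi replicate 4 (0.86 and 0.83, FDR 0.0135 and 0.0118).

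The 3 Sertoli genes that rose were *Cldn11*, *Etd* and *Dmrt1*. *Cldn11*, the claudin of Sertoli tight junctions, had 54.2, 27.8, 32.2 and 24.5 CPM with DMSO and 83.1, 79.0, 65.1 and 78.9 CPM with MEKi (2.21-fold higher, FDR 4.78e-05). *Etd*, an X-linked gene, had 19.6, 9.94, 7.85 and 12.1 CPM against 31.8, 25.9, 23.6 and 51.5 CPM (2.76-fold higher, FDR 3.96e-04). In both the groups stood apart. *Etd* was nearly absent from XX DMSO libraries, at 0.223 ± 0.260 CPM, but *Cldn11* stood there at 60.9 ± 14.6 CPM. *Dmrt1*, which keeps the male fate of Sertoli cells after birth, had 26.4, 14.2, 14.0 and 12.4 CPM against 25.9, 28.6, 24.7 and 37.4 CPM, with DMSO replicate 2 within the MEKi range. It is also expressed by germ cells, whose markers rose in the same libraries, and its call (FDR 0.0469) held only without DMSO replicate 2 or MEKi replicate 4 (FDR up to 0.216 otherwise). *Gdnf*, above, was the 1 Sertoli gene that fell, and the count was 0 without DMSO replicates 2 or 4 or MEKi replicates 2 or 4.

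Of 17 pre-granulosa genes, which mark the supporting cells of the ovary, 3 rose and 1 fell (median 0.24). Of all genes 1.29% rose and 1.98% fell. *Foxl2*, the factor that sets granulosa fate, stood far below the ovary. It had 2.50, 6.96, 4.21 and 1.94 CPM with DMSO and 7.34, 5.98, 4.80 and 7.75 CPM with MEKi, with overlap (log2 fold change 0.60, 95% interval −0.14 to 1.34, FDR 0.449), against 152 ± 21.7 CPM in XX DMSO libraries. Its log2 fold change was 1.00 without DMSO replicate 3. *Rspo1*, the R-spondin that sustains WNT signalling in the ovary, had 41.0 to 50.8 and 55.8 to 67.5 CPM with no overlap but missed the test (0.37, FDR 0.0608), with 263 ± 9.37 CPM in XX DMSO libraries. *Wnt4*, its partner ligand, averaged 120 ± 19.2 and 110 ± 7.47 CPM (FDR 0.684). *Rhox8*, a homeobox gene of the X chromosome, had 6.06, 2.73, 2.30 and 0.778 CPM with DMSO and 23.0, 19.9, 8.91 and 20.1 CPM with MEKi (5.98-fold higher, FDR 3.73e-06). The groups stood apart, and the MEKi mean of 18.0 ± 6.20 CPM was above the 10.2 ± 2.04 CPM of XX DMSO libraries. *Runx1*, a factor of the early ovary, averaged 4.18 ± 1.29 and 9.19 ± 1.60 CPM (FDR 0.0133, lost without DMSO replicate 3 or MEKi replicate 6 at 0.0889 and 0.0827), against 94.8 ± 12.4 CPM in XX. *Irx3*, an Iroquois factor, averaged 3.72 ± 2.08 and 8.85 ± 3.46 CPM with overlap (FDR 0.0169, lost without DMSO replicates 3 or 4 or MEKi replicates 1, 2 or 6, at up to 0.103), against 646 ± 93.2 CPM in XX. *Lef1*, a WNT effector, fell from 45.3 ± 8.62 to 29.2 ± 3.49 CPM, away from the 99.5 ± 13 CPM of XX (FDR 0.0123, lost without DMSO replicate 2 or MEKi replicate 6 at 0.0696 and 0.0835). Without MEKi replicate 6, 1 gene of the list rose and 0 fell.

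Foetal Leydig genes were for the most part level. Of 22 tested, 1 rose and 1 fell (median −0.02), the former being *Ren1*. *Star*, which delivers cholesterol to mitochondria, averaged 53.6 ± 6.38 and 52.8 ± 8.15 CPM (FDR 0.975), and *Cyp11a1*, which cleaves its side chain, 143 ± 24.4 and 127 ± 29.3 CPM (log2 fold change −0.15, 95% interval −0.62 to 0.33, FDR 0.839). *Cyp17a1*, which leads to androgens, fell. It had 82.0, 85.8, 95.2 and 122 CPM with DMSO and 36.2, 36.5, 66.8 and 55.2 CPM with MEKi, without overlap (1.93-fold lower, FDR 0.0114), and lost the call without DMSO replicate 5 or MEKi replicates 1 or 2 (FDR 0.052, 0.073 and 0.0634). *Insl3* did not pass the filter on low counts. Of 13 hedgehog pathway genes 0 passed with edgeR, DESeq2 or voom, and at an unadjusted p below 0.05 there were 0 higher and 1 lower. The targets *Gli1*, at 84.5 to 114 and 57.8 to 90.4 CPM (log2 fold change −0.33, FDR 0.315), and *Ptch1*, at 141 to 221 and 139 to 191 CPM (−0.07, 95% interval −0.37 to 0.23, FDR 0.889), overlapped between the groups.

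**Figure D3:**
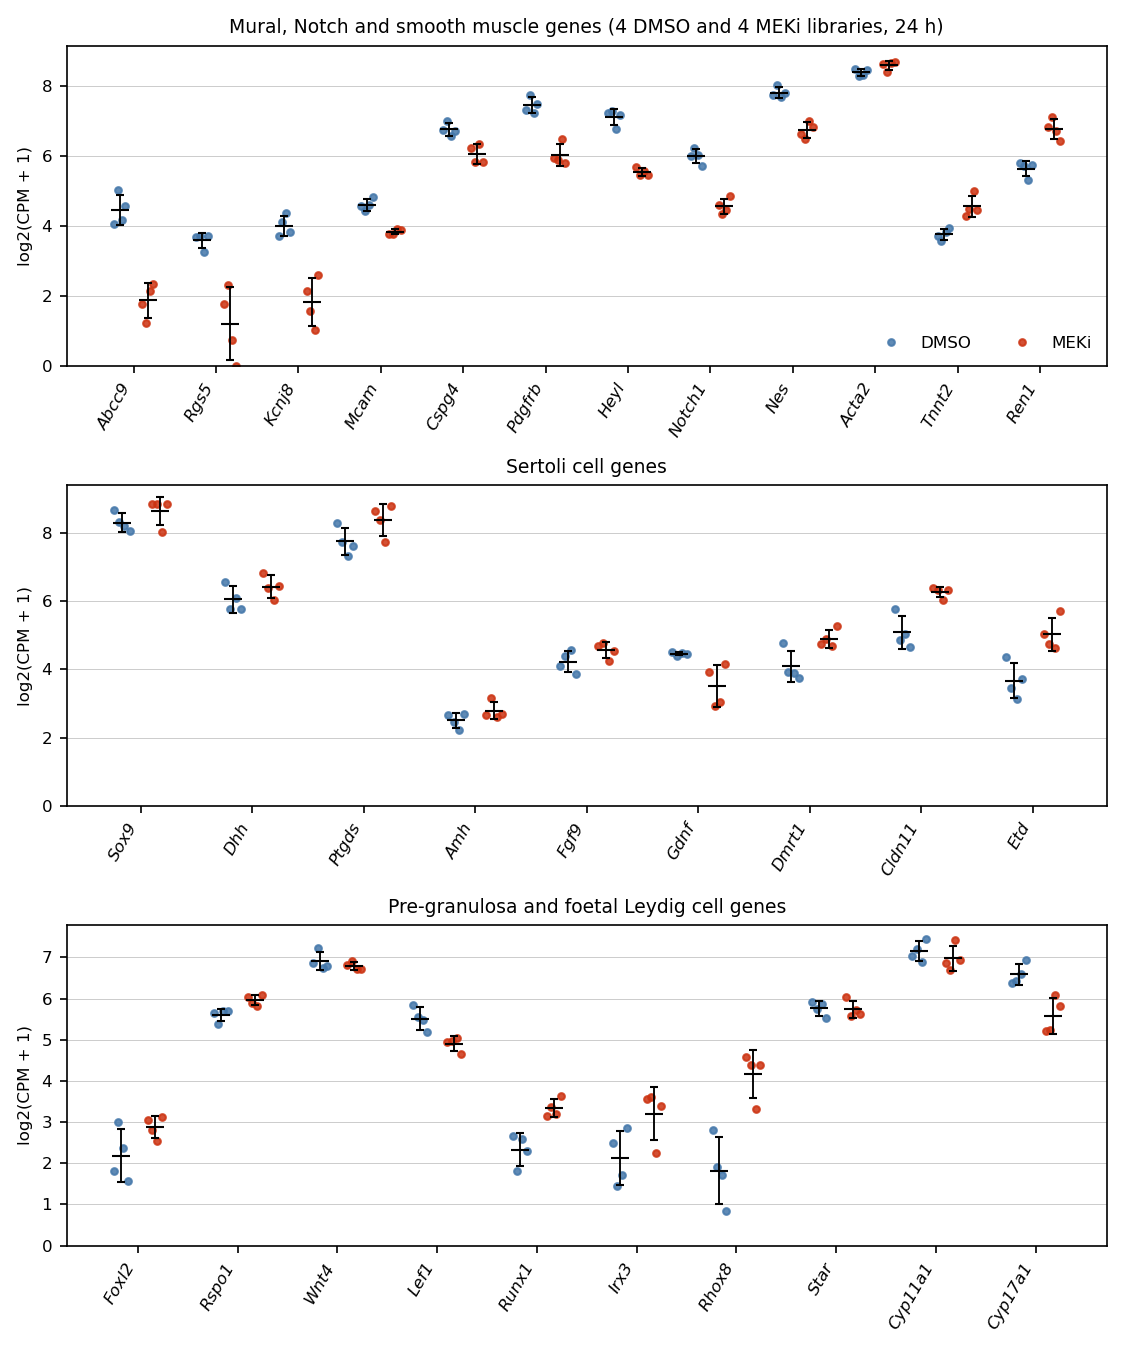
Levels of cell type genes in the 8 libraries, as log2(CPM + 1). Panels show mural, Notch and smooth muscle genes, Sertoli genes, and pre-granulosa and Leydig genes. Each dot is 1 library, and bars are the mean ± SD of 4. *Abcc9*, *Rgs5* and *Notch1* are lower with MEKi, *Acta2*, *Sox9* and *Star* overlap, and *Ren1*, *Cldn11* and *Rhox8* are higher.

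Changes in secreted signals were few but some were large. Of 26 activin and TGF-beta pathway genes, 2 rose and 3 fell (median −0.02). *Fstl3*, a secreted protein that binds and blocks activin, had 9.27, 6.46, 5.56 and 7.39 CPM with DMSO and 28.9, 29.9, 20.6 and 30.1 CPM with MEKi (3.86-fold higher, log2 fold change 1.95, SE 0.24, FDR 7.69e-08). XX DMSO libraries averaged 20.5 ± 2.95 CPM. *Ltbp1*, which anchors latent TGF-beta in matrix, averaged 69.9 ± 15.2 and 120 ± 17.8 CPM (FDR 4.11e-04), and XX 169 ± 12.7 CPM. *Tgfb1* itself had 14.4 to 16.8 and 3.99 to 7.82 CPM (2.38-fold lower, FDR 0.0215, lost without MEKi replicate 2 at 0.0918). *Gdf10*, a ligand of the same family, averaged 11.4 ± 2.32 and 4.74 ± 0.580 CPM (FDR 0.0204, lost without DMSO replicates 2 or 3 or MEKi replicates 1 or 6, at 0.0568 to 0.0764). In the BMP list 1 of 23 fell (median −0.11), the target *Id1*, which averaged 124 ± 20.3 and 78.6 ± 7.35 CPM (FDR 0.0139, lost without DMSO replicate 5 or MEKi replicate 2 at 0.0769 and 0.0711).

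Of 32 WNT pathway genes, 1 rose and 2 fell (median −0.01), against 1.29% and 1.98% of all genes. *Dkk2*, a secreted WNT modulator, had 15.0, 13.2, 13 and 12.1 CPM with DMSO and 5.38, 0.664, 1.71 and 2.28 CPM with MEKi, far apart (5.14-fold lower, log2 fold change −2.36, FDR 6.66e-05, and −2.98 without MEKi replicate 1). *Lgr4*, a receptor for R-spondins, had 109, 166, 154 and 130 CPM against 231, 301, 195 and 237 CPM, also apart (1.71-fold higher, FDR 0.00643, lost without MEKi replicate 2 at 0.0516). XX DMSO libraries averaged 232 ± 33.1 CPM of *Lgr4*. The other that fell was *Lef1*, above.

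Of 19 retinoic acid genes, 3 rose and 2 fell (median −0.17), against 1.29% and 1.98% of all genes. In the testis the enzyme CYP26B1 degrades retinoic acid. *Cyp26b1* had 72.4, 71.3, 69.0 and 74.3 CPM with DMSO and 36.7, 43.2, 64.1 and 36.5 CPM with MEKi, where replicate 4 came closest to DMSO (1.57-fold lower, FDR 0.0146). Its call was lost without MEKi replicates 1, 2 or 6 (FDR 0.0939, 0.0511 and 0.102). XX DMSO libraries stood at 7.37 ± 3.23 CPM. *Rdh10*, which makes retinal, the precursor, averaged 21.8 ± 3.76 and 11.5 ± 4.99 CPM (FDR 0.0139, lost without DMSO replicate 4 or MEKi replicates 1 or 2 at 0.0804, 0.123 and 0.0553). *Rarres1*, named for its response to retinoids, had 8.56, 8.20, 8.62 and 4.67 CPM against 28.4, 23.2, 15.8 and 23.2 CPM, with no overlap (2.92-fold higher, FDR 1.14e-04). *Stra6*, a retinol transporter, averaged 7.62 ± 1.77 and 14.0 ± 2.66 CPM (FDR 0.0398), and the call held only without MEKi replicate 6 (FDR up to 0.12 otherwise). *Dhrs3*, which turns retinal back to retinol, was 1.5-fold higher (FDR 0.00313) and went under 1.5-fold without DMSO replicates 2 or 5 or MEKi replicates 1, 2 or 6.

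Of 58 matrix genes, 4 fell and 0 rose (median −0.08), against 1.98% and 1.29% of all genes. *Col14a1*, a fibril-associated collagen, had 168, 188, 146 and 123 CPM with DMSO and 86.6, 61.8, 72.3 and 93.0 CPM with MEKi (1.98-fold lower, FDR 4.58e-06). *Adamts1*, a metalloprotease that cleaves proteoglycans, averaged 92.1 ± 10.4 and 55.6 ± 7.12 CPM (FDR 8.06e-04). Both stood apart between groups. *Col15a1*, a basement membrane collagen, had 78.5 CPM in DMSO replicate 3 and 40.6 to 47.8 CPM in the other DMSO libraries, against 24.6 to 41.5 CPM with MEKi (FDR 0.0246). Without DMSO replicate 3 its log2 fold change went from −0.71 to −0.44 (FDR 0.287), and the call was lost without MEKi replicates 1 or 2 as well (FDR 0.0911 and 0.113). *Spon1*, the matrix protein spondin, averaged 30.1 and 18.2 CPM with overlap (FDR 0.0409) and kept the call only without DMSO replicate 4 or MEKi replicate 6 (FDR up to 0.196 otherwise). Without DMSO replicate 3, 2 matrix genes fell. *Nt5e*, an ectoenzyme that makes adenosine and the 1 of 21 YAP and SRF targets that fell, had 49.2, 27.8, 26.6 and 21.8 CPM against 12.2, 7.97, 9.59 and 19.6 CPM (2.49-fold lower, FDR 8.91e-04), with 1.39 ± 0.607 CPM in XX.

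Cell cycle transcripts leaned lower as lists, with 0 DEGs by edgeR, DESeq2 or voom. Of 31 DNA replication genes 28 were negative (median −0.21), and of 24 mitosis genes 23 (median −0.23), beside a median of −0.01 over all genes. At an unadjusted p below 0.05, 10 genes of each list were lower and 0 higher. Over all 15125 genes these counts were 1205 and 1211. Replication genes summed to 2183 to 2510 CPM with DMSO and 1938 to 2081 CPM with MEKi, without overlap, and mitosis genes to 1784 to 2317 and 1623 to 1921 CPM, with overlap. *Mcm2*, a helicase subunit, had 101 to 131 and 74.4 to 99.4 CPM (log2 fold change −0.32, 95% interval −0.55 to −0.08, FDR 0.125). *Mki67*, the marker of cycling cells, had 163 to 250 and 132 to 168 CPM (−0.41, −0.70 to −0.13, FDR 0.0835). Neither passed. Of 22 brakes on the cycle and p53 targets, 1 rose and 1 fell. *Cdkn1c*, the CDK inhibitor p57, had 471, 383, 477 and 619 CPM with DMSO and 913, 958, 737 and 833 CPM with MEKi, apart (1.77-fold higher, log2 fold change 0.82, SE 0.13, FDR 8.99e-06), and XX DMSO libraries averaged 1394 ± 132 CPM. *Plk2*, a polo-like kinase, fell from 34.0 ± 7.85 to 18.7 ± 4.46 CPM (FDR 0.00208).

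Metabolic and stress lists held few DEGs. Of 33 cholesterol and fatty acid genes 0 passed (median 0.06), and 7 were higher and 1 lower at an unadjusted p below 0.05. The lists of 32 MYC and ribosome biogenesis, 29 amino acid and ER stress, 13 heat shock, 21 cytokine, 26 interferon and 27 lysosome genes also had 0 DEGs with edgeR, DESeq2 or voom. At an unadjusted p below 0.05 they had 1, 5, 5, 1, 2 and 1 higher and 0, 4, 0, 5, 2 and 3 lower, in this order, and all genes 1211 and 1205. Among 31 glycolysis genes 1 fell, *Pfkp*, a phosphofructokinase, at 10.8 ± 1.11 and 4.43 ± 1.66 CPM (FDR 0.0169, lost without DMSO replicate 4 or MEKi replicates 2 or 6 at 0.0526 to 0.078). Of 17 coelomic epithelium genes 2 rose, both keratins. *Krt8* had 45.3, 40.3, 32.4 and 51.3 CPM with DMSO and 86.1, 116, 83.2 and 90.7 CPM with MEKi, well apart (2.24-fold higher, FDR 2.49e-04). *Krt18*, with which it pairs in filaments, averaged 46.9 ± 6.13 and 71.9 ± 19.7 CPM (FDR 0.0314, lost without DMSO replicates 3 or 5 or MEKi replicates 1 or 2, at up to 0.247). Of 17 clock genes, 2 rose and 1 fell. *Rora*, an activator of the clock, averaged 19.6 ± 2.17 and 9.30 ± 1.76 CPM (FDR 0.00571). The repressors *Nfil3* (21.9 and 34.8 CPM, FDR 0.0486) and *Bhlhe41* (6.59 and 13.8 CPM, FDR 0.0361) rose, the former losing its call whichever library was left out (FDR up to 0.192) and the latter keeping it only without DMSO replicate 2 or MEKi replicate 4 (FDR up to 0.168 otherwise).

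**Figure D4:**
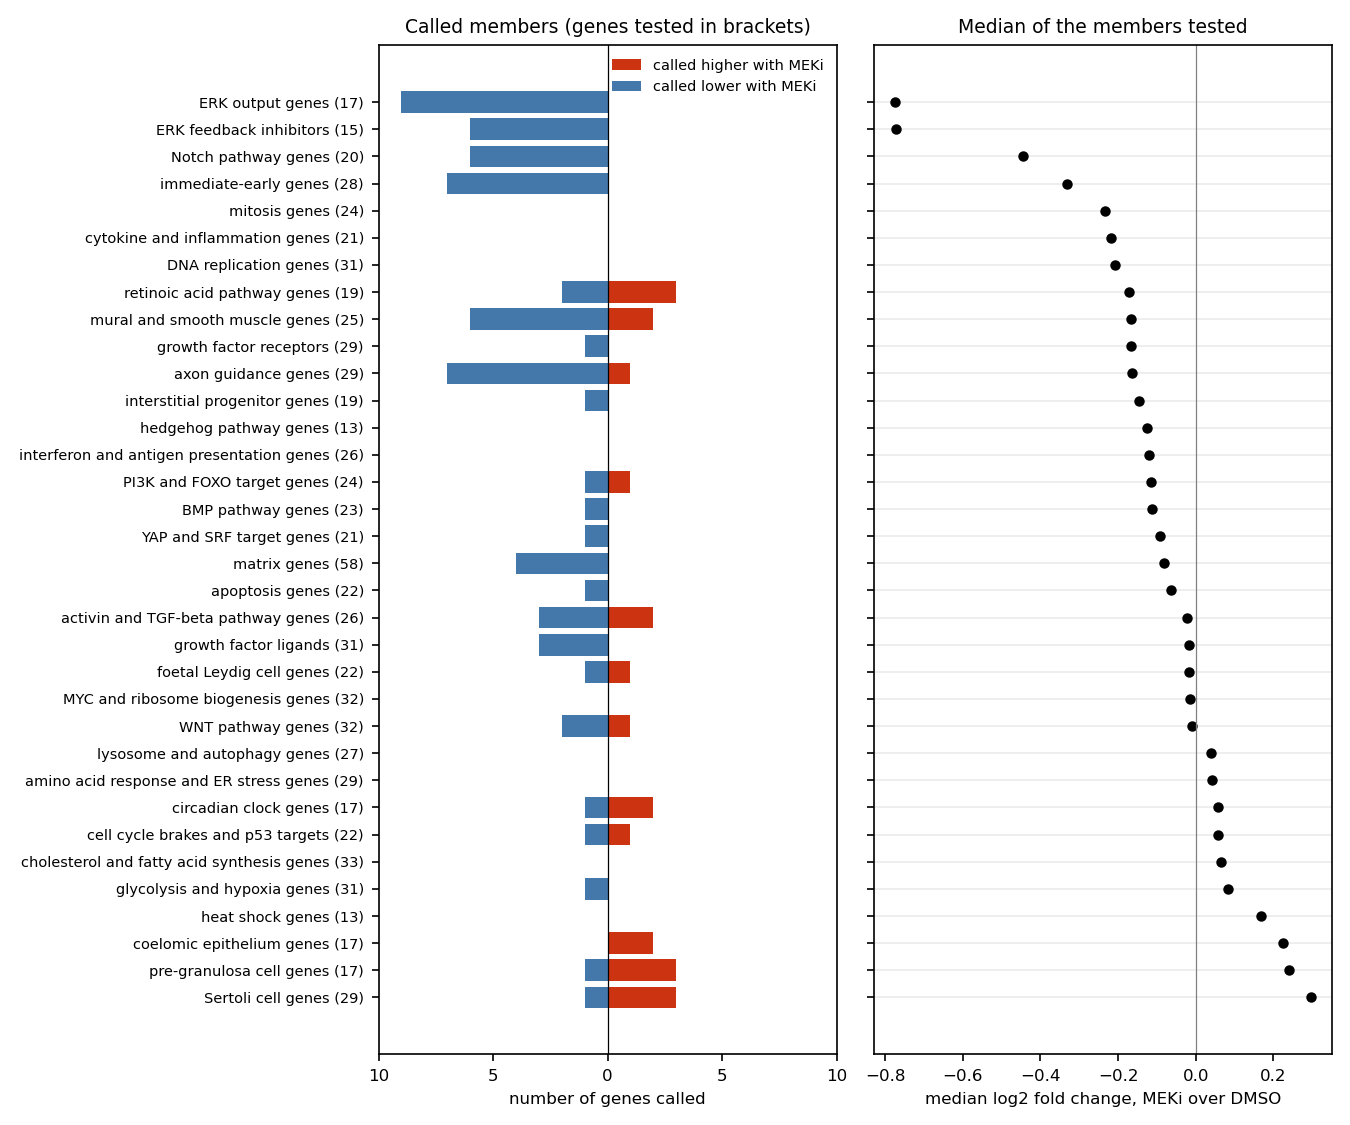
DEGs in each gene list at 24 h, with members lower with MEKi drawn to the left and members higher to the right, and the median log2 fold change of each list beside them. The ERK lists have 6 of 15, 9 of 17 and 7 of 28 lower and 0 higher. Replication and mitosis genes have negative medians and 0 DEGs.

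The largest rises and falls among genes outside the lists of other cells, averaging 5 CPM or more and with groups that did not overlap, took in genes of no pathway list. *H2-Q10*, a secreted MHC class I protein best known from liver, had 5.70, 3.73, 6.51 and 7.0 CPM with DMSO and 29.8, 37.2, 25 and 52.9 CPM with MEKi (6.29-fold higher, FDR 7.07e-09). It belongs to a family of near-identical genes, so reads may have been split among copies. ENSMUSG00000097126.4, an identifier for which no name was found, had 56.7, 42.8, 38.3 and 23.7 CPM against 241, 249, 133 and 303 CPM (5.69-fold higher, FDR 3.97e-13). *Fabp3*, a fatty acid carrier of muscle, had 48.8, 43.2, 40.4 and 62.2 CPM against 150, 178, 120 and 212 CPM (3.42-fold higher, FDR 6.5e-09). These 3 rises were seen in every library. *Fabp3-ps1*, a processed copy on chromosome 10, rose 3.81-fold, and its reads may belong to *Fabp3*. *Cidea*, a lipid droplet protein, rose 3.40-fold (10.8 ± 5.43 and 35.0 ± 6.70 CPM), *Cnmd*, the angiogenesis inhibitor chondromodulin, 3.24-fold (10.1 ± 2.42 and 33.9 ± 10.1 CPM), *Klk1*, tissue kallikrein, 3.81-fold (3.05 ± 1.07 and 11.5 ± 4.54 CPM), *Shisal1* 4.66-fold (1.99 ± 1.17 and 9.73 ± 1.09 CPM) and *Plekhb1* 3.82-fold (2.79 ± 0.890 and 10.9 ± 3.64 CPM), with FDR values from 3.73e-05 to 0.00189. *Col11a2*, a cartilage collagen, rose 3.13-fold (FDR 0.043) but kept the call only without MEKi replicate 6 (FDR up to 0.16 otherwise). *Rhox8* and *Fstl3*, above, completed the 12. The germ cell markers moved with these rises, and the part of those markers in the values was not tested.

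On the side of the falls, *Dusp2*, *Egr2*, *Nrarp*, *Abcc9* and *Rgs5*, above, were among the 12. *Espn*, which bundles actin, had 60.6, 43.7, 38.5 and 39.7 CPM with DMSO and 5.87, 10.6, 5.48 and 3.19 CPM with MEKi (7.57-fold lower, FDR 8.06e-12). *Ebf1*, an early B cell factor also made by stromal progenitors, had 41.7, 55.4, 50.8 and 61.8 CPM against 8.80, 4.65, 11.3 and 9.57 CPM (5.79-fold lower, FDR 1.37e-10). *Apold1*, an immediate-early gene of endothelium, had 20.7, 22.4, 25.3 and 23.7 CPM against 2.93, 3.99, 3.08 and 2.28 CPM (7.55-fold lower, FDR 2.84e-09). Each was at least 3 times lower in every MEKi library than in the lowest DMSO library. The endothelial markers moved with *Apold1*, and with *Ctla2a* and *Depp1*, given next. The part of those markers in the values of these genes was not tested. *Ctla2a*, a cysteine protease inhibitor, fell 14.2-fold (10.7 ± 3.96 and 0.769 ± 0.839 CPM), *Depp1*, a FOXO target, 12.2-fold (15.9 ± 5.77 and 1.22 ± 1.23 CPM) and *Ptpn18*, a phosphatase, 6.50-fold (11.9 ± 1.99 and 2.07 ± 2.20 CPM), with FDR values of 3.11e-06, 3.47e-06 and 1.41e-05. These rest on few MEKi counts, and the log2 fold change went from −3.82 to −4.90 for *Ctla2a* and from −3.61 to −4.34 for *Depp1* without MEKi replicate 1, and from −2.70 to −3.54 for *Ptpn18* without MEKi replicate 2. *Nefm*, a neurofilament, is there through a single library. DMSO replicate 3 had 160 CPM and the other DMSO libraries 9.98 to 13.4 CPM, against 0.456 to 9.93 CPM with MEKi. Without that library its log2 fold change went from −3.05 (FDR 0.0077) to −0.99 (FDR 0.594), and without MEKi replicate 6 the FDR was 0.0511. DMSO replicate 3 also had the highest sum of neural crest and glial markers, 273 CPM beside 92.9 to 131 CPM in the other DMSO libraries.

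The response at 24 h was set beside that of 4 MEKi and 4 DMSO XY libraries at 72 h, where 979 genes (6.47%) were DEGs. The 72 h libraries were made in another set, so that time and library set cannot be told apart, but each MEKi group was compared with DMSO libraries of its own set. Of the 195 genes higher at 24 h, 43 were also higher at 72 h and 6 were lower. Of the 300 lower at 24 h, 158 were also lower at 72 h and 2 were higher. The change in the MEKi effect from 24 h to 72 h passed an FDR of 0.05 in 225 genes (1.49%), among them 34 of the 195 and 20 of the 300. The count depended on single libraries. It was 97 without MEKi 24 h replicate 1, 120 without DMSO 24 h replicate 5, 136 without MEKi 24 h replicate 6 or DMSO 72 h replicate 4, 141 without MEKi 72 h replicate 3 and 144 without DMSO 72 h replicate 5. Of the ERK-dependent genes that fell at 24 h, all 6 inhibitors, 7 of 9 readouts and 5 of 7 immediate-early genes were also DEGs at 72 h, with *Dusp6* at a log2 fold change of −2.16 (FDR 1.5e-10), *Spry4* at −3.33 (FDR 4.85e-09) and *Etv5* at −2.09 (FDR 2.63e-09). The change of these 3 between the times did not pass (FDR 0.732, 0.0988 and 0.52). Those that were not DEGs at 72 h were *Ets2* (−0.13, FDR 0.687), *Etv1* (−0.53, FDR 0.0379), *Zfp36* (−0.07, FDR 0.848) and *Junb* (−0.53, FDR 0.0197).

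*Ebf1* had the lowest FDR for a change between the times among the genes named. After its fall by 2.53 on the log2 scale at 24 h it averaged 84.0 CPM with DMSO and 96.8 CPM with MEKi at 72 h (0.20, FDR 0.518), a difference between the times of 2.73 (SE 0.31, FDR 1.29e-07). *Efna1* likewise went from −1.47 to −0.12 (FDR of the difference 0.00237). *Cyp17a1*, lower at 24 h, was higher at 72 h, at 28.0 and 66.4 CPM (log2 fold change 1.28, FDR 8.68e-04), and the difference of 2.23 passed (FDR 2.49e-04). In *Acta2* the 72 h levels were 402 and 802 CPM (0.99, FDR 3.67e-08), a difference of 0.79 from 24 h (FDR 0.00678). *Dmrt1* turned the other way, from 0.81 at 24 h to −1.27 at 72 h (difference −2.08, FDR 0.00194). The differences for *H2-Q10*, *Rarres1*, *Bhlhe41* and *Col15a1* were −2.22, −2.24, −2.83 and −1.36 (FDR 0.00227, 0.00127, 0.00121 and 0.00632). These 9 differences passed with each of the 16 libraries left out. That of *Sox9* (−0.96, from 0.35 to −0.61, FDR 0.0391) passed only without DMSO 24 h replicates 2 or 3, MEKi 24 h replicate 4, DMSO 72 h replicates 2 or 6 or MEKi 72 h replicate 4 (FDR up to 0.103 otherwise).

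**Figure D5:**
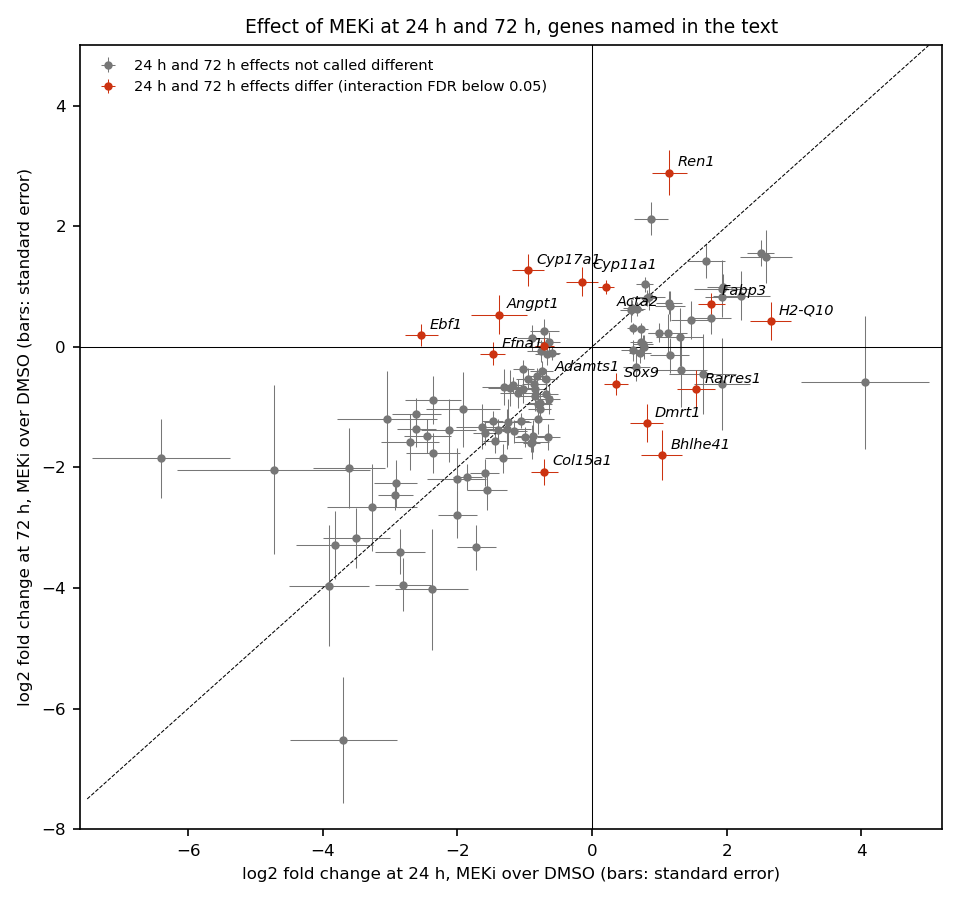
Log2 fold change of MEKi over DMSO at 24 h (horizontal) and at 72 h (vertical) for 117 genes named in the text, with standard errors as bars and a dashed line of equal change. Red points are genes whose change between the times had an FDR below 0.05. *Dusp6* and *Espn* lie near the line, *Ebf1* and *Cyp17a1* far above it, and *Dmrt1* and *H2-Q10* below it.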

How the data were processed

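The deposited values are whole counts of UMIs per gene and library, which the authors made with scPipe and Rsubread from 3′ RNA-seq reads aligned to GRCm39, where a UMI counted once for a gene within each of 2 lanes, without normalisation or pooling of replicates. Their methods give these steps for germ cell libraries, and they were taken to hold for the somatic ones. GEO's description of the pool omits MEKi replicate 2, whose place comes from the deposited barcode list. Of 42422 identifiers, 40391 (99.0% of counts) matched GENCODE M39.

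Genes were kept with filterByExpr (15125), library sizes scaled by TMM, and edgeR 4.0.16 in R 4.3.3 fitted a quasi-likelihood model with 10 group means to all 40 libraries. Standard errors came from the estimate and its F statistic. Each library is a pool of gonads, so p-values measure the spread between pools. No copies were found (chi-square per degree of freedom 2.53 to 7.69 over 12 pairs). The script was tested on simulated counts.

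The 34 pathway lists, the 6 lists of other cells and the genes were chosen with earlier results of these data known. Named are the tested members of the ERK lists, the 12 largest rises and falls without overlap, up to 6 DEGs per list by FDR, and a set of cell type markers. Alternatives were RLE or no composition scaling, other filters, DESeq2 1.42.0, glmTreat, voom and treat in limma 3.58.1, fewer libraries, the replicate block, thinning to the smallest total, and each library left out. Germ cell data were not analysed here, and some genes that the rule names are not reported here.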

Additional observations from a re-analysis of the deposited data

Results flagged for a closer look

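In each group of 4, the highest or lowest library was checked for a gap to the nearest library that was large against the whole range (Dixon's 95% limit). Of 288 groups looked at for 144 genes, 25 had such a library, where chance flags about 1 in 20. DMSO replicate 3 held 5, MEKi replicates 1 and 4 held 5 each, MEKi replicates 2 and 6 held 3 each, DMSO replicate 2 held 2, and DMSO replicates 4 and 5 held 1 each. In DMSO replicate 3 these were *Ccnd1* at 222 CPM, *Sema3d* at 35.8 CPM, *Nefm* at 160 CPM, *Chgb* at 5.97 CPM and *Cartpt* at 51.7 CPM. In DMSO replicate 2 they were *Dmrt1* at 26.4 CPM and *Kctd14* at 223 CPM. *Rgs5* was low at 8.62 CPM in DMSO replicate 4 and *Rarres1* at 4.67 CPM in DMSO replicate 5.

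In MEKi replicate 1, *Egr1* was high at 318 CPM, *Nrarp* at 2.93 CPM, *Ndufa4l2* at 0.978 CPM and *Chgb* at 169 CPM, and *Igfbp7* was low at 156 CPM. In MEKi replicate 2, *Vegfc* was low at 0.664 CPM and *Acta2* at 336 CPM, and *Amh* was high at 7.97 CPM. In MEKi replicate 4, *Egr2* was high at 5.14 CPM, and *Junb*, *Ier2*, *Sox9* and *Fstl3* were low at 108, 269, 258 and 20.6 CPM. In MEKi replicate 6, *Etv1* was high at 28.3 CPM and *Klk1* at 18.2 CPM, and *Plaur* was low at 0.912 CPM. In the direction of treatment, the replicate 4 values of *Egr2*, *Sox9* and *Fstl3* are those nearest to DMSO, and the values of *Junb* and *Ier2* are those farthest from it.

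The MEKi effect differed between 24 h and 72 h, by a test of the difference itself, in 15 of the genes named. As log2 fold changes at 72 h minus those at 24 h, the differences were 2.73 for *Ebf1*, 2.23 for *Cyp17a1*, 1.92 for *Angpt1*, 1.74 for *Ren1*, 1.36 for *Efna1*, 1.23 for *Cyp11a1*, 0.79 for *Acta2* and 0.72 for *Adamts1*. They were −2.83 for *Bhlhe41*, −2.24 for *Rarres1*, −2.22 for *H2-Q10*, −2.08 for *Dmrt1*, −1.36 for *Col15a1*, −1.06 for *Fabp3* and −0.96 for *Sox9*. Of those not described with their tests above, *Ren1* was higher at both times (1.15 and 2.89, FDR of the difference 0.0415), *Cyp11a1* was higher at 72 h (1.08, FDR of the difference 0.0426), *Fabp3* went from 1.77 to 0.72 (FDR 0.032), *Angpt1* from −1.38 to 0.53 (FDR 0.0452) and *Adamts1* from −0.71 to 0.02 (FDR 0.0431). Leaving out 1 of the 16 libraries ended the call of the difference in 13 cases for *Angpt1*, 12 for *Adamts1*, 11 for *Ren1*, 8 for *Cyp11a1* and 8 for *Fabp3*.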

How the results depend on the processing

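The counts of 195 genes higher and 300 lower were 202 and 299 with RLE scaling, 154 and 337 with total counts and no composition factor, 210 and 344 with no filter, 168 and 310 with a filter of 1 CPM, 184 and 271 with DESeq2, 208 and 261 with only the 24 h libraries of the set, 180 and 266 with only the 8 libraries, and 159 and 209 after thinning to the smallest total. Tests of a change beyond 1.5-fold gave fewer, 43 and 114 with glmTreat and 21 and 67 with voom and treat. Leaving out 1 library at a time, the counts were 145 to 262 and 214 to 319, and the count of changes between the times 97 to 293. The share of higher genes among DEGs was 39.4%, and 31.4%, 27.4% and 23.9% with no composition factor, glmTreat and voom, where the median of all genes was −0.06, −0.01 and −0.01.

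Replicates 2 and 4 are in both groups. Correlations of their deviations from the group means were 0.0669 and 0.190, and with 2 shared numbers and no label that links them the numbers were not taken as pairs. With the replicate number as a block, 144 genes were higher, 225 lower and 120 changed between the times.

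Of 114 named DEGs, 114 were called with RLE scaling, 106 with no composition factor, 109 with no filter, 106 with a filter of 1 CPM, 104 with DESeq2, 49 with glmTreat, 35 with voom, 89 with the block, 88 of the 104 tested after thinning, and 84 to 102 with 1 library left out. The sign turned only for genes near 0 or carried by 1 library. *Epha4* became −0.041 with no composition factor, −0.010 with no filter, −0.0087 with a filter of 1 CPM and −0.099 with voom. With 1 library left out, *Epha4* ranged from −0.35 to 0.17, *Star* from −0.13 to 0.028, *Ptch1* from −0.17 to 0.091, *Chgb* from −0.28 to 5.0 and *Cartpt* from −5.28 to 0.65. The cause of these moves was not tested beyond the library left out. The MEKi libraries were the shallower, which limits genes of a few CPM most.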

Other observations

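The genes given here were chosen after their values had been seen. The 10 DEGs outside the lists of other cells with the highest mean CPM over the 8 libraries took in 3 already described, *Cdkn1c*, *Egr1* and *Hmga2*. Of the other 7, 6 rose. *Anxa2*, an annexin of the plasma membrane, had 528, 364, 450 and 506 CPM with DMSO and 841, 761, 608 and 727 CPM with MEKi (1.59-fold higher, FDR 3.24e-05), and went under 1.5-fold without DMSO replicate 3. *Lbh*, a developmental regulator, had 339, 335, 342 and 336 CPM against 597, 596, 514 and 541 CPM (SD of the DMSO libraries 2.94 CPM, log2 fold change 0.73, SE 0.10, FDR 1.85e-07). *Pcp4l1* averaged 199 ± 16.8 and 342 ± 17.2 CPM (SD, n = 4; FDR 1.64e-05), and was still higher at 72 h (182 and 373 CPM, FDR 5.57e-08). *Dpysl2*, a microtubule-binding protein of growing axons, averaged 225 ± 29.1 and 370 ± 76.0 CPM (FDR 0.00363) and was level at 72 h (340 and 316 CPM). *Serpinb6a*, a protease inhibitor, averaged 194 ± 13.6 and 296 ± 12.9 CPM (1.52-fold, FDR 2.18e-06), with 531 ± 49.9 CPM in XX DMSO libraries, and went under 1.5-fold without DMSO replicates 2 or 3 or MEKi replicate 2. *Igfbp7*, a secreted IGF-binding protein, fell from 296 ± 40.8 to 195 ± 26.8 CPM (1.51-fold, FDR 5.94e-04) and went under 1.5-fold without DMSO replicate 5 or MEKi replicate 1. *Gm28437*, annotated as an unprocessed pseudogene on chromosome 1, had 1640 to 3051 and 2783 to 4534 CPM (FDR 0.0278), but its reads may belong to a near-identical copy, and the call was lost without DMSO replicates 3 or 4 or MEKi replicates 1, 2 or 6 (FDR up to 0.174). *Kctd14* had 223, 122, 137 and 138 CPM against 367, 331, 212 and 319 CPM (1.99-fold higher, FDR 7.77e-06), with 1029 ± 81.6 CPM in XX.

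Single libraries carried a few large changes. *Chgb*, chromogranin B of secretory granules, had 169 CPM in MEKi replicate 1, 0 to 3.32 CPM in the other MEKi libraries and 1.07 to 5.97 CPM with DMSO. *Cartpt*, a neuropeptide gene, had 51.7 CPM in DMSO replicate 3 and 0 to 0.978 CPM in the other 7 libraries. Both count as DEGs (FDR 0.00494 and 0.0438), and both changed sign without that library. *Cxcr4*, the receptor of the chemokine CXCL12, had 63 counts over the DMSO libraries and 0 in all 4 MEKi libraries, at least 12.4-fold lower when 3 counts over the group are taken as the floor. Unlike *Chgb* and *Cartpt*, it kept its call with each library left out (FDR up to 2.68e-04). The endothelial markers moved with *Cxcr4*, and their part in its value was not tested.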
